A study of Homo sapiens with 3 samples.

Results

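The genes described here encode the centromere, the kinetochore built on it, the spindle assembly checkpoint and the chromosomal passenger complex. They were a list of 40 gene symbols written down by function, and all 40 were found among the 59719 gene names of the expression table. All 40 had a mean of at least 1 TPM (a level scaled to transcript length and to the same sum in every library), the minimum that 13637 genes passed. RNA-seq was done on total RNA from PC3, a human prostate cancer cell line that grows without androgen, in 3 libraries. Cells of the shCON library carried a vector control, and those of the shUSP16#1 and shUSP16#2 libraries carried different hairpins against USP16, a deubiquitinase, to ask how loss of USP16 alters gene expression in these cells. Per the study's methods, hairpins were cloned into the pLKO.1 lentiviral vector and stable PC3 cells were selected with puromycin. With 1 library per condition no difference below has a replicate check, no test was run, and both hairpins were compared with the same shCON library. The sequencing depth of each library is unknown, because TPM keeps no record of it.

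A centromere is marked by nucleosomes that hold CENP-A in place of histone H3. The constitutive centromere-associated network (CCAN) binds these nucleosomes through the whole cell cycle, and in mitosis the outer kinetochore assembles on it and grips the microtubules of the spindle. Kinetochores without microtubules send out the checkpoint signal that holds the anaphase-promoting complex inactive, and the passenger complex releases faulty attachments. Many of these genes are transcribed mainly in late S phase, G2 and mitosis, so their RNA levels are high in cells that divide.

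USP16 itself was at 19.9 TPM in the control and at 3.5 and 1.08 TPM under hairpins #1 and #2, so the targeted gene was low in both hairpin libraries and lowest under shUSP16#2. The epithelial markers KRT8, KRT18, KRT19, EPCAM and CDH1 summed to 2542, 2454 and 2676 TPM in these libraries, though KRT19 was higher under the hairpins (507, 838 and 958 TPM) and EPCAM lower (274, 166 and 136 TPM). KLK2 and KLK3, genes of luminal prostate cells, were listed at 0 in all 3, which fits what is known of PC3. Markers of blood cells summed to at most 0.89 TPM and those of fibroblasts to at most 11.1 TPM. Changes below are differences in log2(TPM + 1), a hairpin library minus shCON, a scale that understates changes of weakly expressed genes. All tested genes together had a median change of -0.17 with shUSP16#1 and -0.37 with shUSP16#2, and values are also given relative to these medians.

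Most of the kinetochore genes were lower in both hairpin libraries than in shCON. The 40 genes had a median change of -0.65 with shUSP16#1 and -0.97 with shUSP16#2, which is -0.48 and -0.60 relative to all tested genes. Lower under both hairpins were 36 of the 40 genes, against 57.2% of all tested genes, and 33 of 40 lay below the median of all genes under both, against 41.7%. Only SPC24 and CENPX of the 40 were higher under both hairpins, against 24.5% of all tested genes, and PMF1 and MAD1L1 were higher under shUSP16#1 and lower under shUSP16#2. With the trend of the changes along GC content removed, as described further on, CENPX was lower under both hairpins. SPC24 was then at -0.02 under shUSP16#2, still above the median of all genes (-0.37). The levels were lower under shUSP16#2 than under shUSP16#1 for 37 of the 40 genes, against 73.4% of all genes. In bulk RNA, fewer cells in G2 and mitosis and less of these RNAs per cell cannot be told apart.

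The differences were mostly smaller than 2-fold. Under shUSP16#1, 4 of the 40 genes were at least 2-fold lower, against 5.79% of all tested genes, and under shUSP16#2 there were 19 of 40, against 19.5%. Under both hairpins the count was 4 of 40, against 4.6%, namely CENPF, KNL1, CENPU and ZW10. None of the 40 was at least 2-fold higher under both hairpins, against 1.14% of all tested genes.

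**Figure D1:**
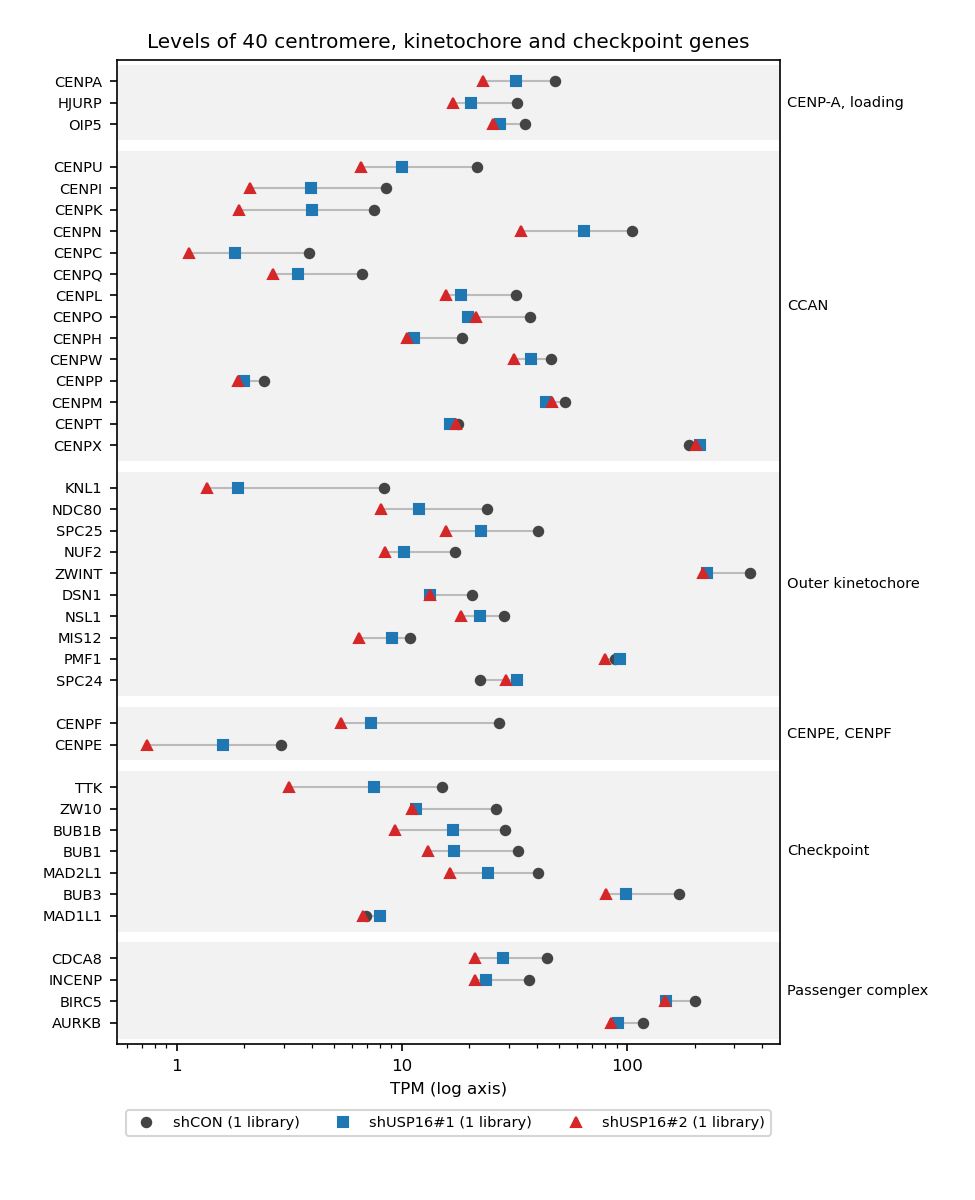
Level of each of the 40 genes in TPM on a log axis, grouped by role, with 1 point per library (circle shCON, square shUSP16#1, triangle shUSP16#2) and a line over their range. For 36 of the genes both hairpin points lie to the left of the shCON point, and KNL1, CENPF and TTK span the widest ranges.

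Because most of these genes differed in the same direction, their promoters were read for short sequences known from cell cycle genes. RefSeq windows from 250 bases before to 50 bases after the transcription start (build GRCh38.p14) were matched by symbol for 33 of the 40 genes, and CENPH, CENPL, CENPM, KNL1, BUB3, TTK and BIRC5 were not matched. The cell cycle genes homology region (CHR), an element bound by the DREAM and MYB-MuvB complexes, was searched on both strands as TTTGAA and as the palindrome with the letters TTCGAA. The CCAAT box, bound by NF-Y, was searched on both strands as CCAAT. The last 150 bases before the RefSeq start are shown for 5 genes that were lower under both hairpins and for the 2 genes that were higher under both. The 5 genes all have CHR letters in their windows. Another 11 genes that were lower under both, CENPU among them, have none and are not shown. Capitals mark these CHR letters, which read TTCAAA when they lie on the other strand, and CCAAT boxes, which then read ATTGG. The window of CENPF is chr1:214603045-214603194 on the forward strand. That of HJURP is chr2:233854536-233854685 on the reverse strand. For ZWINT it is chr10:56361260-56361409 on the reverse strand. BUB1B has chr15:40160919-40161068 on the forward strand, and INCENP has chr11:62123861-62124010 on the forward strand. Those of the genes that were higher are chr19:11155783-11155932 on the reverse strand for SPC24 and chr17:82022879-82023028 on the reverse strand for CENPX.
CENPF: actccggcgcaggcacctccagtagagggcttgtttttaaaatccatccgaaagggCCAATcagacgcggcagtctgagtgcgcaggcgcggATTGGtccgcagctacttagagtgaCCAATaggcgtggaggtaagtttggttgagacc
HJURP: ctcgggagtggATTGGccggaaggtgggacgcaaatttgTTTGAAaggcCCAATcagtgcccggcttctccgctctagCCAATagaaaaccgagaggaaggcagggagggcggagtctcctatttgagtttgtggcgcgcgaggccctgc
ZWINT: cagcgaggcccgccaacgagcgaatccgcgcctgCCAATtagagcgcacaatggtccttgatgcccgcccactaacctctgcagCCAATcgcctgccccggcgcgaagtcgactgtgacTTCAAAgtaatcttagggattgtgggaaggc
BUB1B: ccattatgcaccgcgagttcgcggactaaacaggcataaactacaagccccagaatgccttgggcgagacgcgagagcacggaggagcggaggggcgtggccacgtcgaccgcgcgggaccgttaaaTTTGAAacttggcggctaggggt
INCENP: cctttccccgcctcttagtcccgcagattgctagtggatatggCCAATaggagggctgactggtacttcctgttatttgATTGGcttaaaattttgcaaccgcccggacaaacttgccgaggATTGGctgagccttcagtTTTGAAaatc
SPC24: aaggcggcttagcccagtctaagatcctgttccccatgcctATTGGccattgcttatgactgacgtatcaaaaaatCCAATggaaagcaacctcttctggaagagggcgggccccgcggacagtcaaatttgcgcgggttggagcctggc
CENPX: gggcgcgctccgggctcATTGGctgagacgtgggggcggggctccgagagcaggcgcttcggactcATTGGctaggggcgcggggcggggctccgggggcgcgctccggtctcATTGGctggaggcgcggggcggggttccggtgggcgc

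CHR letters stood at position -111 of HJURP, -31 of ZWINT, -23 of BUB1B and -10 of INCENP, counted from the RefSeq start to the first base of the match. In CENPF they lay at position 41, beyond the stretch shown, which holds 3 CCAAT boxes. SPC24 and CENPX had CCAAT boxes, 2 and 3 of them in the stretches shown, but no CHR letters in the whole window. PMF1 and MAD1L1 had no CHR letters either. With the GC trend removed, CENPX, PMF1 and MAD1L1 were lower under both hairpins, so their contrast in direction with the other genes shown was not kept.

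CHR letters were found in 18 of the 33 windows (54.5%), against 16.6% of 27305 windows in the table and 10.6% of 9522 windows of tested genes. Before any removal of the GC trend, all 18 genes with CHR letters were lower under both hairpins, against 57.2% of all tested genes. Their mean changes over the hairpins ran from -1.95 to -0.40, with a median of -0.90. The share among all tested genes with CHR letters was not computed. Of the 15 genes without them 11 were lower under both, with mean changes from -1.31 to 0.44 and a median of -0.45. The transcripts of these groups had median GC contents of 44.0% and 44.5%, and with the GC trend removed their median changes were -0.68 and -0.31. These medians hide a spread. The genes without CHR letters that were not lower under both, SPC24, PMF1, MAD1L1 and CENPX, had 55.4% to 62.3% GC. Of these, only SPC24 was not lower under both with the trend removed. MIS12, also without CHR letters, was then at 0.12 and -0.15. CENPW, which has CHR letters, was then at 0.10 and -0.002, so not all of the 18 stayed lower under both. The genes not lower under both after the removal were thus CENPW with CHR letters, and SPC24 and MIS12 without. A part of the CHR in the lower levels was not tested. CCAAT boxes were found in 22 windows (66.7%), against 36.8% for tested genes, and here the genes with and without a box had medians of -0.81 and -0.82. CHR letters and a CCAAT box together were in 14 windows (42.4%), against 4.58% for tested genes. E2F letters (TTTCCCGC, TTTCGCGC, TTTGCCGC or TTTGGCGC, both strands) were in 4 windows (12.1%), against 5.51% for tested genes, and the E-box CACGTG in 3 (9.09%), against 10.3%. A match is a stretch of letters and was not tested as a binding site. A single RefSeq start was used per gene, and other starts were not searched. Some windows lie within the GENCODE span of the gene. Among them are those of CENPI and AURKB, without CHR letters, and of CENPA and NUF2, with them.

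CENP-A and the proteins that load it were lower under both hairpins, with median changes of -0.55 and -0.90, or -0.38 and -0.53 relative to all genes. CENPA, which encodes the centromeric histone variant, was at 47.8 TPM in shCON, 32.3 TPM in the shUSP16#1 library and 22.9 TPM in the shUSP16#2 library. Levels given for all 3 libraries below follow that order. HJURP, the chaperone that deposits CENP-A, was at 32.4, 20.4 and 16.9 TPM. OIP5, a subunit of the Mis18 complex that licenses deposition, was at 35.1, 27.2 and 25.4 TPM. The levels of HJURP followed those of its client, since the ratio of HJURP to CENPA was 0.677, 0.631 and 0.739. OIP5 had the smallest changes of the 3 genes, and 470 of its 1236 exonic bases are shared on the opposite strand with OIP5-AS1, which was at 26.7, 23.9 and 23.5 TPM.

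The CCAN was lower too, with 13 of its 14 genes lower under both hairpins, against 57.2% of all tested genes. Its median changes were -0.74 and -0.88, or -0.56 and -0.51 relative to all genes, and CENPU alone was at least 2-fold lower under both. CENPC, which joins CENP-A nucleosomes to the outer kinetochore, was at 3.89, 1.81 and 1.14 TPM. CENPN, which recognises the CENP-A nucleosome, was at 106, 64.5 and 34.0 TPM. Its partner CENPL was at 32.2, 18.3 and 15.7 TPM. The ratio of CENPN to CENPL was 3.29 and 3.52 in shCON and shUSP16#1 and 2.16 under shUSP16#2, where CENPN was lowest.

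Within the CENP-H/I/K/M group the subunits differed. CENPI was at 8.50, 3.97 and 2.12 TPM, and CENPK at 7.51, 4.0 and 1.90 TPM, so both were at about the same level in every library. CENPH was at 18.6, 11.3 and 10.5 TPM. CENPM, a small GTPase-like subunit, was at 53.1, 44.0 and 46.7 TPM, with changes of -0.27 and -0.18. The ratio of CENPM to CENPI was 6.25 in shCON and 11.1 and 22.0 in the hairpin libraries. CENPM lay close to the median of all genes, while CENPI and CENPK lay below it under both hairpins. With the GC trend removed this contrast was lost, since CENPM had a mean change of -0.67, between CENPI at -0.78 and CENPK at -0.56.

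In the CENP-O/P/Q/U group, CENPU, which recruits the mitotic kinase PLK1 to kinetochores, was at 21.6, 10 and 6.58 TPM, with changes of -1.04 and -1.58. CENPQ was at 6.64, 3.46 and 2.67 TPM. CENPO was at 37.2, 19.7 and 21.4 TPM, 1 of the 3 genes that were not lower under shUSP16#2 than under shUSP16#1, and CENPP was at 2.45, 2.00 and 1.88 TPM. CENPO shares 1488 of its 5518 exonic bases with ADCY3 on the opposite strand, and ADCY3 was at 41.2, 19.3 and 34.0 TPM. CENPP shares 3719 of 9794 with IPPK, which was at 5.33, 3.51 and 3.72 TPM. The library kit is not stated to keep strand, so the reads of such pairs cannot be told apart. In all, 10 of the 40 genes share at least 100 exonic bases with another gene of at least 1 TPM in shCON. Named copies of CENPC, CENPI, CENPU, BUB1 and BUB3 were at most 0.06 TPM.

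The CENP-T/W/X group has histone folds that bind centromeric DNA. CENPT, which also recruits the NDC80 complex, was at 17.8, 16.3 and 17.5 TPM. CENPW was at 46.0, 37.7 and 31.7 TPM. CENPX, which also serves in the Fanconi anaemia pathway, was at 189, 212 and 204 TPM, with changes of 0.17 and 0.11, which were -0.24 and -0.48 with the trend along GC content removed. Here the levels of CENPT and CENPX differed little between libraries, and only CENPW lay below the median of all genes under both hairpins. This order turned with the GC trend removed, where CENPW was at 0.10 and -0.002 and CENPT at -0.41 and -0.52, so that CENPT and CENPX lay below the median under both and CENPW did not.

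The outer kinetochore, where microtubules bind, was lower for 8 of its 10 genes under both hairpins, against 57.2% of all tested genes. Its median changes were -0.61 and -0.68, or -0.44 and -0.31 relative to all genes. In the NDC80 complex, NDC80 and NUF2 carry the heads that hold the microtubule, and SPC24 and SPC25 form the base that docks on the inner kinetochore. NDC80 was at 24.0, 12.0 and 8.10 TPM. NUF2 was at 17.3, 10.3 and 8.47 TPM, and SPC25 was at 40.4, 22.5 and 15.7 TPM. SPC24, the partner of SPC25, went the other way, at 22.4, 32.4 and 28.9 TPM.

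In shCON, SPC24 was at about the level of NDC80, with a ratio of 0.932, and in the hairpin libraries the ratio was 2.70 and 3.57. The ratio of SPC24 to SPC25 was 0.553, 1.44 and 1.85. The order of NDC80, NUF2 and SPC25 among themselves varied less, with NUF2 to NDC80 at 0.720, 0.856 and 1.05 and SPC25 to NDC80 at 1.69, 1.88 and 1.93. SPC24 (ENSG00000161888) lies on the reverse strand of chromosome 19 from 11131520 to 11155808 (GRCh38, GENCODE 29). The transcripts of SPC24 have a GC content of 57.2%. With the trend of the changes along GC content removed, its changes were 0.27 and -0.02, against medians of -0.17 and -0.37 for all tested genes. Its sign under shUSP16#2 thus turned, but it stayed above the median of all genes under both hairpins. With the changes centred on that median as well, its mean change was 0.39.

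KNL1, the scaffold on which BUB1, BUB3 and BUB1B gather, showed the largest relative difference of the outer kinetochore genes, at 8.31, 1.88 and 1.36 TPM. Its hairpin levels were 22.6% and 16.4% of shCON, and its changes of -1.69 and -1.98 lay at percentiles 0.873 and 1.06 of all tested genes. ZWINT, which binds KNL1, was the most abundant of the 40 genes, at 352, 226 and 218 TPM. KNL1 (ENSG00000137812) lies on the forward strand of chromosome 15 from 40594020 to 40664342 (GRCh38). The ratio of ZWINT to KNL1 was 42.3 in shCON and 120 and 160 in the hairpin libraries.

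The MIS12 complex, the bridge from the CCAN to KNL1 and NDC80, differed less between libraries. MIS12 was at 10.8, 9.02 and 6.47 TPM. DSN1 was at 20.6, 13.4 and 13.3 TPM, and NSL1 was at 28.5, 22.2 and 18.4 TPM. PMF1 was at 88.8, 93.2 and 79.6 TPM, with changes of 0.07 and -0.16, and it stayed far above the other subunits. Its smaller change was not kept with the GC trend removed. The mean changes were then -0.247 for PMF1, -0.245 for DSN1, -0.0857 for NSL1 and -0.0145 for MIS12. PMF1 shares 587 of its 2520 exonic bases with the readthrough gene PMF1-BGLAP on the same strand, which was at 6.74, 12.0 and 12.3 TPM.

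**Figure D2:**
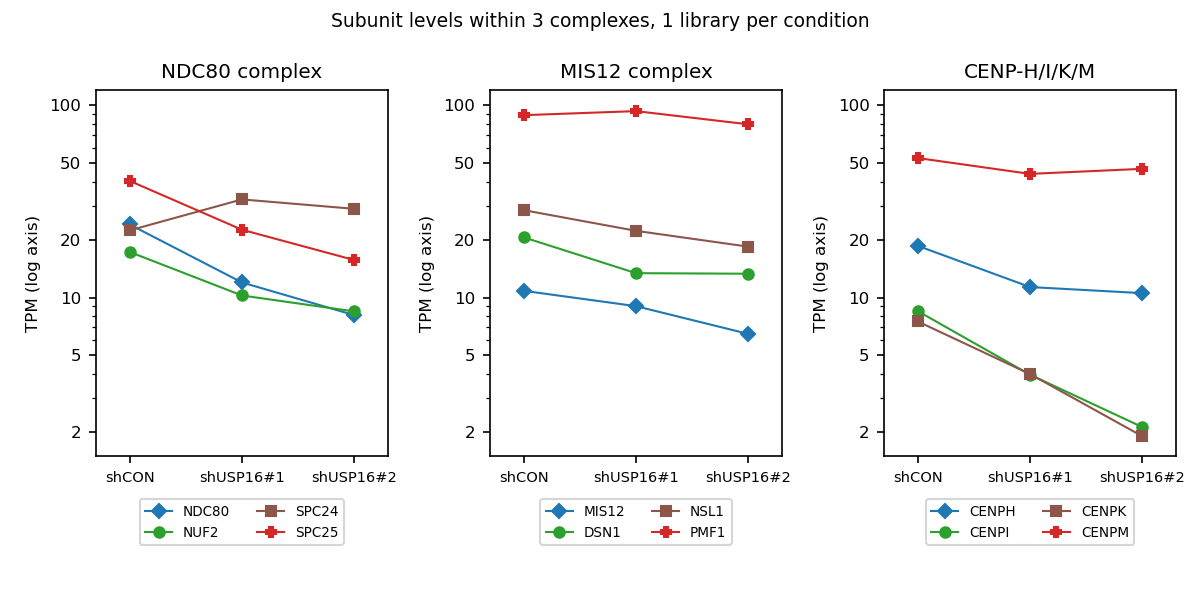
TPM on a log axis of the subunits of the NDC80 complex, the MIS12 complex and the CENP-H/I/K/M group in the 3 libraries (1 point per library, lines join the points of a gene). SPC24 crosses above SPC25 and NDC80 in both hairpin libraries, while PMF1 and CENPM stay at 79.6 to 93.2 TPM and 44.0 to 53.1 TPM as their partners are lower. With the GC trend removed (not drawn), neither PMF1 nor CENPM stood apart from its partners.

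CENPF and CENPE are large coiled-coil proteins that reach kinetochores in mitosis. CENPF was at 27.2, 7.34 and 5.36 TPM, or 27.0% and 19.7% of shCON under the hairpins, and its changes of -1.76 and -2.15 were the lowest of the 40 genes under each. They lay at percentiles 0.836 and 0.682 of all tested genes. CENPF (ENSG00000117724) spans positions 214603195 to 214664588 on the forward strand of chromosome 1 (GRCh38). CENPE, a kinesin that moves chromosomes to the middle of the spindle, was at 2.91, 1.61 and 0.74 TPM and was weakly expressed throughout.

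The spindle checkpoint genes other than MAD1L1 were lower under both hairpins, 6 of 7, against 57.2% of all tested genes. The 7 genes had median changes of -0.77 and -1.24, or -0.60 and -0.87 relative to all genes. TTK, the kinase (MPS1) that starts the signal, was at 15.1, 7.53 and 3.17 TPM, and its change under shUSP16#2 was -1.95. BUB1, a kinase that marks centromeric chromatin, was at 32.8, 17.0 and 13.1 TPM. BUB1B (BubR1), part of the inhibitor that binds CDC20, was at 28.8, 16.9 and 9.32 TPM. These kinases and pseudokinases thus stood at 50% to 58.8% of shCON under shUSP16#1 and at 21.0% to 39.9% under shUSP16#2.

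BUB3, the partner of BUB1 and BUB1B, was the most abundant checkpoint gene, at 170, 99.4 and 80.7 TPM. MAD2L1 (MAD2), which changes shape to capture CDC20, was at 40.2, 24.3 and 16.5 TPM. MAD1L1 (MAD1), the platform on which MAD2 is converted, was at 6.94, 8.02 and 6.75 TPM and differed little, with changes of 0.18 and -0.03. The ratio of MAD1L1 to MAD2L1 was 0.173, 0.330 and 0.410. This contrast was lost with the GC trend removed, where MAD1L1 had a mean change of -0.43 and MAD2L1 of -0.39. ZW10, which brings dynein and MAD1 to kinetochores, was at 26.3, 11.5 and 11.1 TPM, with changes of -1.12 and -1.17. The hairpin libraries were nearly alike for ZW10, and this was the only checkpoint gene at least 2-fold lower under both.

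All 4 genes of the chromosomal passenger complex were lower under both hairpins, against 57.2% of all tested genes. Their median changes were -0.52 and -0.62, or -0.35 and -0.25 relative to all genes, smaller than those of the checkpoint genes. AURKB, the kinase of the complex, was at 118, 91.6 and 84.8 TPM. INCENP, the scaffold that activates AURKB, was at 36.7, 23.6 and 21.2 TPM. BIRC5 (survivin), which reads the centromeric histone mark, was at 200 TPM in shCON and at 149 and 148 TPM under the hairpins. CDCA8 (borealin), which binds nucleosomes beside survivin, was at 44.1, 28.2 and 21.1 TPM. CDCA8 had the lowest changes of the 4, at -0.63 and -1.03, and was the only gene of the complex at least 2-fold lower under shUSP16#2.

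**Figure D3:**
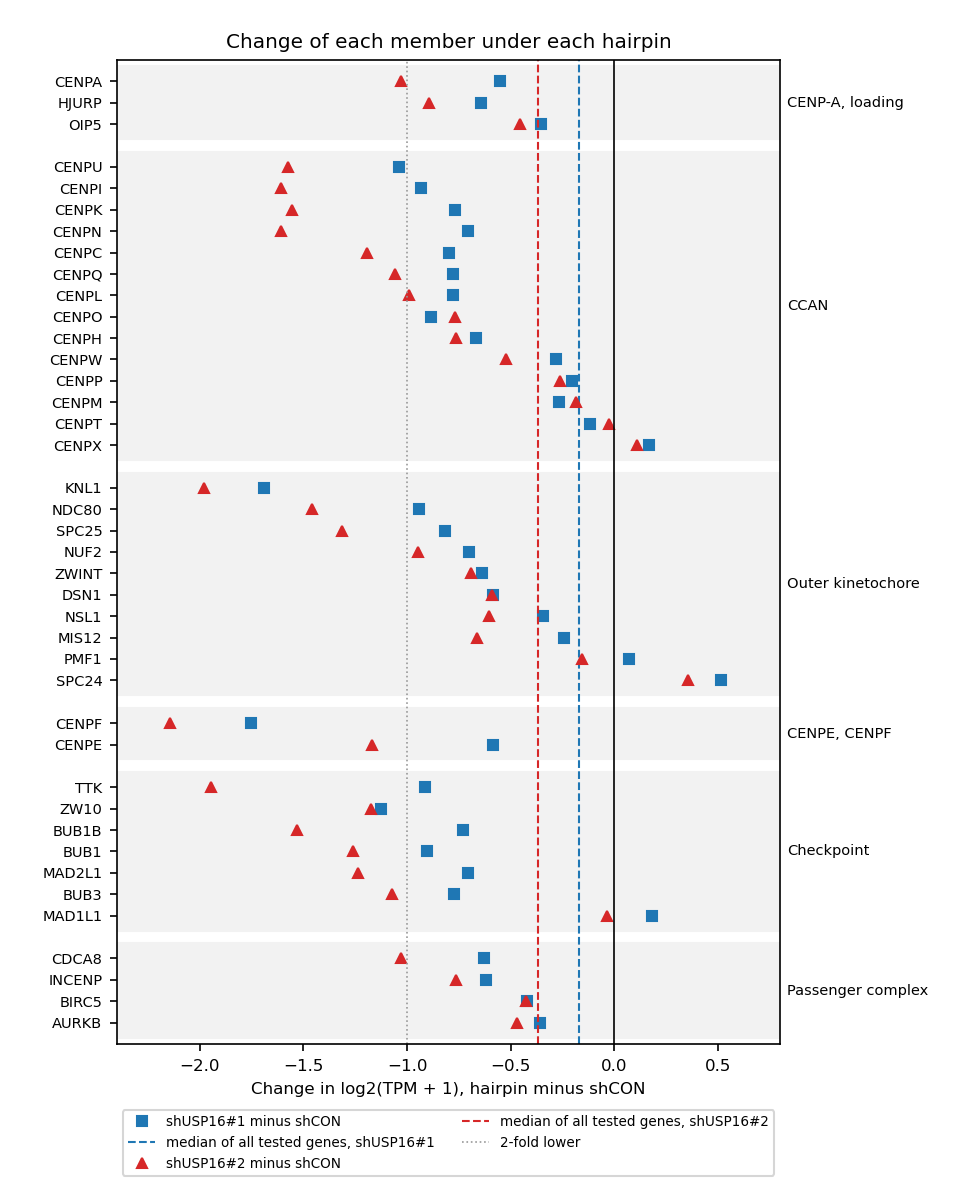
Change in log2(TPM + 1), hairpin minus shCON, of each of the 40 genes (square shUSP16#1, triangle shUSP16#2, 1 library each), with dashed lines at the medians of all tested genes (-0.17 and -0.37) and a dotted line at 2-fold lower. CENPF and KNL1 lie furthest left for shUSP16#1, CENPF, KNL1 and TTK for shUSP16#2, passenger complex genes nearer the medians, and SPC24 and CENPX to the right of 0 for both hairpins.

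The changes across the 40 genes followed the GC content of their transcripts, as they did across all genes. The rank correlation of change with GC content was 0.66 under shUSP16#1 and 0.74 under shUSP16#2 over the 40 genes, and 0.55 and 0.65 over 13296 tested genes. These are correlations across genes of the same libraries, and genes are not independent replicates. The 40 genes had a median GC content of 43.6%, against 49.8% for all tested genes. The 20 genes lowest in GC content (33.9% to 43.5%) had median changes of -0.78 and -1.21, and the 3267 tested genes of that range had -0.59 and -0.99. The 20 genes highest in GC content (43.7% to 62.3%) had median changes of -0.49 and -0.53, against -0.09 and -0.25 for the 8703 genes of that range. Both groups of 20 were therefore lower than genes of like GC content under each hairpin.

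With the GC trend removed, the median of the mean changes of the 40 genes was -0.53, against -0.27 for all tested genes, and -0.82 without the removal. Below the median of all genes under both hairpins were then 29 of 40, against 38.6% of tested genes with a known GC content. All 7 checkpoint genes, MAD1L1 included, and all 4 passenger genes lay below that median under both hairpins. INCENP, at 59.3% GC, had the changes -0.92 and -1.26 on this scale, where it had -0.62 and -0.76 before. CENPF kept -1.31 and -1.45 and KNL1 kept -1.27 and -1.24. This left them the only genes of the 40 at least 2-fold lower under both, against 1.89% of tested genes.

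The outer kinetochore stood apart on this scale, with a median mean change of -0.25, close to the -0.27 of all tested genes. With the changes centred as well it was at 0.02, so its sign turned by a small margin. Below the median of all genes under both hairpins were 4 of its 10 genes, against 38.6% of tested genes with a known GC content. The order of the groups by median mean change also differed, with the passenger complex at -0.56 before the removal and -0.77 after it, and the checkpoint genes at -1.08 before and -0.65 after. The GC trend and the hairpins cannot be told apart with 1 library per condition.

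**Figure D4:**
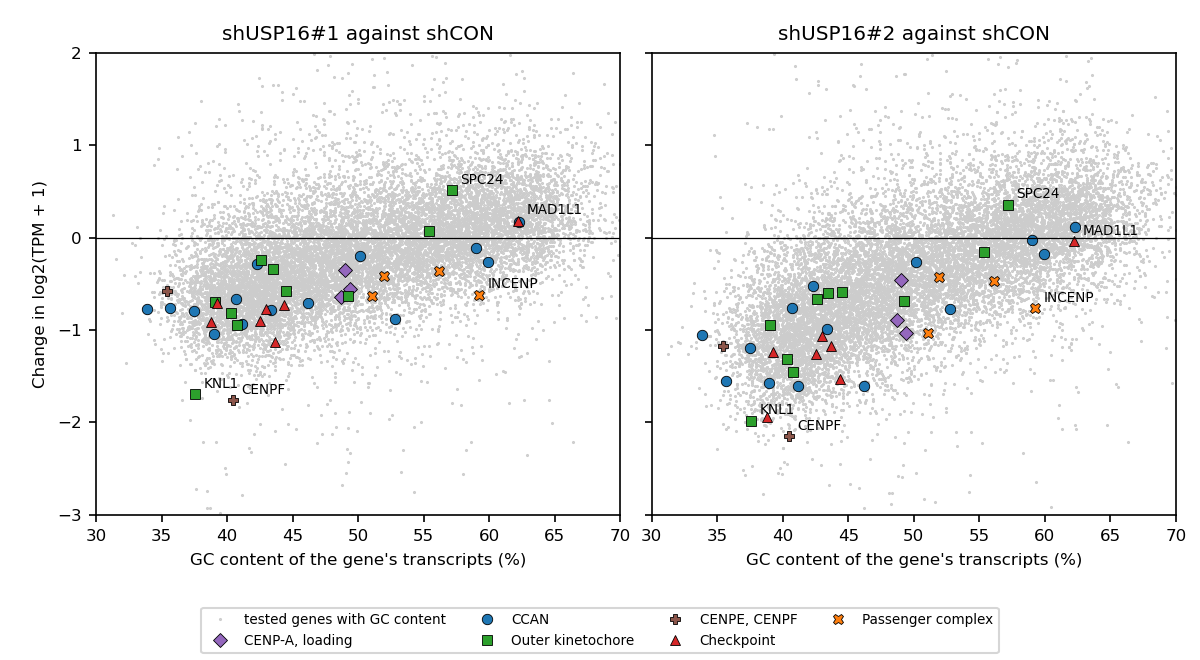
Change in log2(TPM + 1) under shUSP16#1 (left) and shUSP16#2 (right) against the GC content of the gene's transcripts in percent, for tested genes (grey) and the 40 genes by role (coloured). The genes lower in GC content lie lower in both panels, KNL1 and CENPF lie below most genes of like GC content, and INCENP lies low among genes of high GC content.

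The lower levels were seen both in genes on public marker lists of the S or G2/M phase and in genes on neither list. The 12 of the 40 genes on the S-phase or G2/M lists of the Seurat package were all lower under both hairpins, with median changes of -0.67 and -1.10. The other 28 genes had -0.65 and -0.76, and 24 of them were lower under both, where the share of all tested genes was 57.2%. The medians of the mean changes with the GC trend removed were -0.70 for the 12 genes and -0.45 for the 28, against -0.27 for all tested genes. Markers of cycling cells were lower as well, with MKI67 at 29.6, 12.1 and 8.78 TPM, TOP2A at 33.9, 12.9 and 8.77 TPM, PCNA at 467, 267 and 225 TPM and CCNB1 at 254, 142 and 110 TPM. Their part in the lower kinetochore genes was not tested.

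The same was seen in 32 other genes of the kinetochore and the checkpoint, which had median changes of -0.72 and -1.0. Lower under both hairpins were 30 of them, against 57.2% of all tested genes, and higher under both was none, against 24.5%. At least 2-fold lower under both were 4, where the share of all genes was 4.6%. SPDL1, the dynein adaptor of kinetochores, was at 23.3, 7.84 and 7.53 TPM. AURKA, the spindle pole kinase, was at 144, 58.1 and 62.4 TPM. KIF18A, a kinesin that shortens chromosome movements, was at 5.74, 1.99 and 0.82 TPM, and ZWILCH, the partner of ZW10, was at 14.03, 6.06 and 4.31 TPM. With the GC trend removed, 1 of the 32 was at least 2-fold lower under both, against 1.89% of tested genes.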

How the data were processed

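RNA-seq was performed by Majorbio on 3 libraries of PC3 cells (shCON, shUSP16#1 and shUSP16#2), made from total RNA with an Illumina TruSeq RNA kit. Expression profiles came from the Majorbio Cloud Platform, and the authors deposited them as 1 table of TPM, rounded to 2 decimals. The submitters' processing notes name CASAVA, HISAT2 and hg19. The quantification tool and the annotation are not given in the sources used here. Depth is unknown, and precision is limited by 1 library per condition. Of 60930 entries, 1211 repeat a name, and the entry with the highest mean TPM was kept. Another 3 columns repeat the values under the same names and were not used. Columns of GO and KEGG annotation were not used.

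For genes averaging at least 1 TPM over the libraries, the change was the difference of log2(TPM + 1) between a hairpin library and shCON, called at 2-fold under both hairpins. The 40 genes and all lists, the Seurat lists among them, were written down from general knowledge with earlier results of these data known, as was the choice to remove the GC trend. All 40 genes are named, with those of the other lists that passed 2-fold under both hairpins. To remove the GC trend, genes were put in 50 bins by the GC content of their GENCODE 29 transcripts, and each bin was shifted so that its median equalled that of all genes. Gene positions and overlaps come from GENCODE 29 on GRCh38, and promoters from RefSeq. Alternatives were a pseudocount of 0.1, centring, no minimum, a minimum of 5 TPM, GC removal and each hairpin alone. The code was tested on simulated data. Python 3.11.15, numpy 2.4.6, pandas 2.3.3 and matplotlib 3.10.9 were used.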

Additional observations from a re-analysis of the deposited data

How the results depend on the processing

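The direction of the median change of the 40 genes was lower under every alternative. After centring on the all-gene median, the medians of the mean changes were -0.55 for the 40 genes, -0.50 for CENP-A and its loading, -0.59 for the CCAN, -0.36 for the outer kinetochore, -0.29 for the passenger complex, -0.43 for the genes on neither Seurat list, -0.61 for the other kinetochore genes and -0.22 for the anaphase-promoting complex. With the GC trend removed they were -0.53 for the 40 genes, -0.48 for the CCAN, -0.25 for the outer kinetochore, -0.83 for CENPE and CENPF, -0.65 for the checkpoint, -0.77 for the passenger complex, -0.45 for the genes on neither Seurat list, -0.57 for the other kinetochore genes and -0.30 for the anaphase-promoting complex. With the trend removed and the changes centred, they were -0.26 for the 40 genes, -0.43 for CENP-A and its loading, -0.21 for the CCAN, -0.56 for CENPE and CENPF, -0.38 for the checkpoint, -0.43 for the genes on the Seurat lists, -0.18 for those on neither, -0.30 for the other kinetochore genes and -0.027 for the anaphase-promoting complex. The outer kinetochore reversed in sign there, to 0.024, which lay close to the median of all genes, and the cause was not tested. Of the 40 genes, 33 were then lower than the median when centred and 31 when the trend was removed too. At a minimum of 5 TPM, 33 of the 40 genes were left, the CCAN was at -0.71, and CENPF alone stood for its pair at -1.95. The count of the 40 genes past 2-fold lower with both hairpins was 4, and it was 2 centred (CENPF and KNL1, against 2.00% of tested genes), 2 with the GC trend removed (1.89%), 1 with both (CENPF, 0.812%) and 6 with a pseudocount of 0.1 (CENPC and CENPI added, 8.03%). With a single hairpin the count ranged from 4 to 19, the median of the 40 genes from -0.97 to -0.65, that of the CCAN from -0.88 to -0.74 and that of the outer kinetochore from -0.68 to -0.61. The 19 are those without shUSP16#1. No paired analysis was possible because there was 1 library in each condition. The depth is unknown, so low levels such as those of CENPE, CENPP and CENPC are the least certain.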

Other observations

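The anaphase-promoting complex, the ubiquitin ligase that the checkpoint holds inactive, was mixed. Of its 14 core subunits 12 were lower with both hairpins, while 2 were higher. The median change was -0.37 with shUSP16#1 and -0.63 with shUSP16#2, where all tested genes had -0.17 and -0.37. CDC27, a subunit of the arm that holds CDC20, was at 38.3, 17.4 and 10.3 TPM in shCON, shUSP16#1 and shUSP16#2. ANAPC1, the largest scaffold subunit, was at 36.6, 14.2 and 13.0 TPM. These were the 2 subunits at least 2-fold lower with both hairpins. With the GC trend removed 1 was left, against 1.89% of tested genes, and CDC27 had a mean change of -0.88. Among all tested genes 57.2% were lower with both hairpins, 24.5% higher, and 4.6% at least 2-fold lower. ANAPC11 and ANAPC2, which form the catalytic core, were the subunits that were higher under both, a pair chosen here after their values were seen. ANAPC11 was at 201, 292 and 299 TPM and ANAPC2 at 14.1, 18.8 and 17.3 TPM. With the GC trend removed, ANAPC11 had a mean change of 0.23 and ANAPC2 of -0.12, where the median of all tested genes was -0.27. With the GC trend removed and the changes centred, the median mean change of the complex was -0.027.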
